A study of Mus musculus with 6 samples.

Results

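Chloride channels and their close relatives were examined in mouse renal cortex, leaving out the channels of the thick ascending limb and Clcn5. The 118 array probes chosen carry, in the scanner file, the gene name of a CLC, CLIC, anoctamin, bestrophin, CLCA, GABA-A receptor, glycine receptor, tweety or LRRC8 family member, or of Cftr, Clcc1 or Clns1a. They stood for 60 genes, out of 56605 probes on the array. Total RNA came from male mice of 16 weeks, in 6 samples with 1 one-colour Agilent array each, 3 per group. By the labels the groups are db/m and db/db. The db/db mouse, on the C57BLKS/J background, lacks a working leptin receptor and becomes obese and diabetic, and the db/m mouse is its lean heterozygous littermate type. The methods of the study and the design text instead describe both groups as db/db mice, with and without Huangqi decoction (HQD), a herbal extract, and the labels also mention 8 weeks of HQD. Which description holds cannot be told apart here, so the groups are called labelled db/m and labelled db/db, and a positive difference means a higher level in the labelled db/m mice.

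Chloride is the main anion that crosses kidney cell membranes, and its channels set membrane voltage, cell volume and the acidity of organelles. CLC proteins work at the plasma membrane or in endosomes and lysosomes. LRRC8 proteins assemble into the volume-regulated anion channel, which opens when cells swell. Anoctamins are calcium-activated chloride channels or lipid scramblases, and bestrophins are a separate group of calcium-activated channels. GABA-A and glycine receptors are ligand-gated chloride channels best known from neurons, and CFTR is the cAMP-regulated channel that is defective in cystic fibrosis.

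The probes on which the results turn are shown by the first 30 of their 60 bases, 5′ to 3′, as the scanner files give them, with positions on mm9. Clcc1, a chloride channel of the endoplasmic reticulum, had a pair of tested probes with different results. Clcn6, a late endosomal chloride transporter, had 3 probes with the same direction. Gabrd encodes the delta subunit of extrasynaptic GABA-A receptors, and Lrrc8d had probes of opposite sign. No base of these is in capitals, because none was singled out.
Clcc1 A_55_P2594626, chr3:108475807-108476229, plus strand: accctatttggttggttccaccaacaaagg
Clcc1 A_55_P2121222, chr3:108481635-108481694, plus strand: gcacattgtaactggcttttaagaaaagaa
Clcn6 A_51_P410300, chr4:147378970-147379029, minus strand: ctgctgaacctgcctttccagaaaagccca
Clcn6 A_51_P492026, chr4:147380694-147380753, minus strand: ggggtcagaagtttttggggatgtgttgag
Clcn6 A_55_P2000738, chr4:147380253-147380312, minus strand: actaaaattccagctaacagcctttgaagc
Gabrd A_51_P149623, chr4:154759071-154759089, minus strand: aggccttttctctgtgggatcaggatcaga
Lrrc8d A_55_P2805915, chr5:106243693-106243750, plus strand: gagtgtttacacattgcttgcctgcctaaa
Lrrc8d A_55_P2640895, chr5:106163138-106163197, plus strand: aggcaatttgaatggactgagcagttaatt

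The first Clcc1 probe spans 423 bases of the genome with its 60 bases, so that it crosses an intron, whereas the other lies within an unbroken stretch. The files place only 19 bases of the Gabrd probe on the genome. The Lrrc8d probes lie far apart, and the second is assigned to a transcript that carries only an Ensembl name.

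Levels are log2 intensities minus the 75th percentile of the array, so a level of 0 is the 75th percentile, and levels of different probes are not compared. A probe entered the limma test if the scanner software had called it well above background throughout a group, on its 3 arrays. The 6 arrays had median intensities from 75.9 to 113, and 51.6% to 59.0% of their probes were well above background. Replicate 2 of labelled db/m and replicate 3 of labelled db/db stood apart from their groups, and each correlated most with the other across tested probes (r = 0.992), against 0.982 and 0.988 for the former and 0.987 and 0.988 for the latter with arrays of the same label. Markers of the labelled tissue were present, with 6 of 6 proximal tubule and 4 of 4 podocyte genes tested. The summed signal of 3 inner medulla markers, in units of the 75th percentile, ran from 8.94 to 58.6 in labelled db/m and from 9.26 to 10.3 in labelled db/db. In bulk tissue, fewer cells of a type and less RNA per cell cannot be told apart.

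Of the 118 probes, 44 were well above background on all 6 arrays and 50 on none. At least 1 probe was bright enough to test for 36 of the 60 genes, which gave 51 tested probes. Detection differed widely between families. All 5 LRRC8 genes and all 3 tweety genes were tested, as were 4 of 5 CLC, 4 of 5 CLIC, 7 of 10 anoctamin, 1 of 3 bestrophin, 8 of 19 GABA-A receptor and 1 of 5 glycine receptor genes. Neither CLCA gene was tested. No probe was well above background on any array for 16 genes, among them Ano2, Best3, Clca1, Clcn1, Clic6, Gabrp, Gabrr3, Glra2, Glra3 and Glrb. Clcn1 is the skeletal muscle chloride channel, and Glrb the subunit that anchors glycine receptors at synapses. The other 8 untested genes, Ano4, Ano5, Best1, Clca2, Gabra2, Gabra5, Gabrq and Glra4, were well above background on some arrays only.

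**Figure D1:**
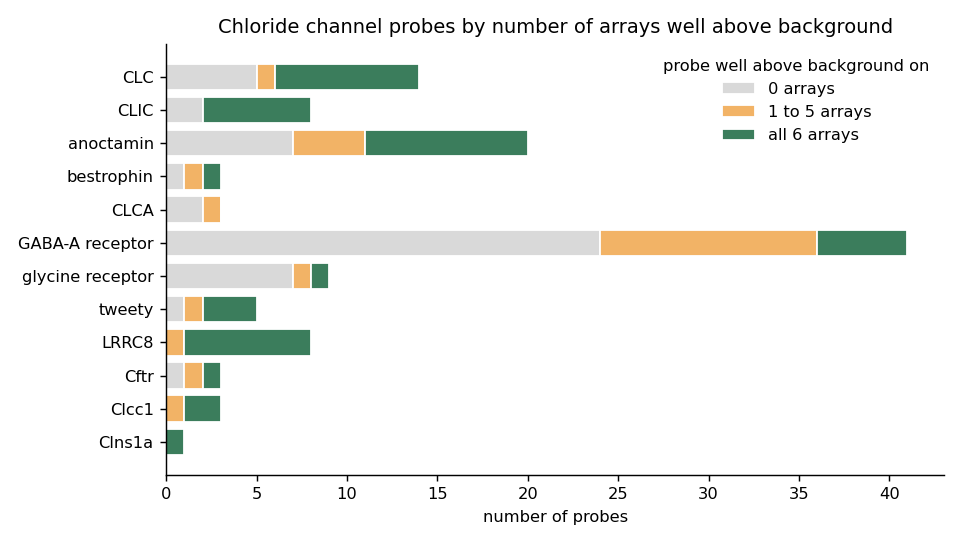
Number of probes per family (horizontal axis) that were well above background on 0, on 1 to 5 or on all 6 arrays. The LRRC8 bar holds 8 probes, none of them dim on every array, while 24 of the 41 GABA-A receptor probes were dim on every array.

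A probe is said to pass the test, or to be called, at an unadjusted p under 0.05, and the p adjusted over all probes is printed beside each called value and some others. By that measure, 12 of the 51 tested probes (23.5%), from 10 genes, differed between the groups, against 17.7% of the 29889 probes tested on the whole array. Of these, 8 probes (15.7%) were lower in labelled db/m, against 11.1% of all probes, and 4 (7.84%) were higher, against 6.62%. This order of the shares depended on the processing. The share of chloride channel probes was below that of all probes with no filter on dim probes (5.93% against 8.67%), with trend and robust variance in limma (17.6% against 18.5%) and without labelled db/db replicate 2 (5.45% against 8.6%). It was above it in the other 16 of 19 alternatives, in 2 of them by less than 1 percentage point. Of the 8 lower probes, 3 belong to the same gene, Clcn6. No chloride channel probe passed a Benjamini-Hochberg adjusted p of 0.05 in limma, and 0% of all probes did. The smallest adjusted p was 0.241. The study screened genes by fold as well, and of the 51 probes 0 combined such a p with a log2 difference of 1 or more in size, against 0.960% of all probes. Levels did not overlap between the groups for 12 of the 51 probes (23.5%), close to the 24.2% of all probes. With the probe of highest mean level standing for each gene, the median difference over the 36 genes was -0.07, against -0.05 over the 15513 tested genes with a RefSeq symbol. The difference was negative for 22 of the 36 genes (61.1%), compared with 57.8% of all genes.

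**Figure D2:**
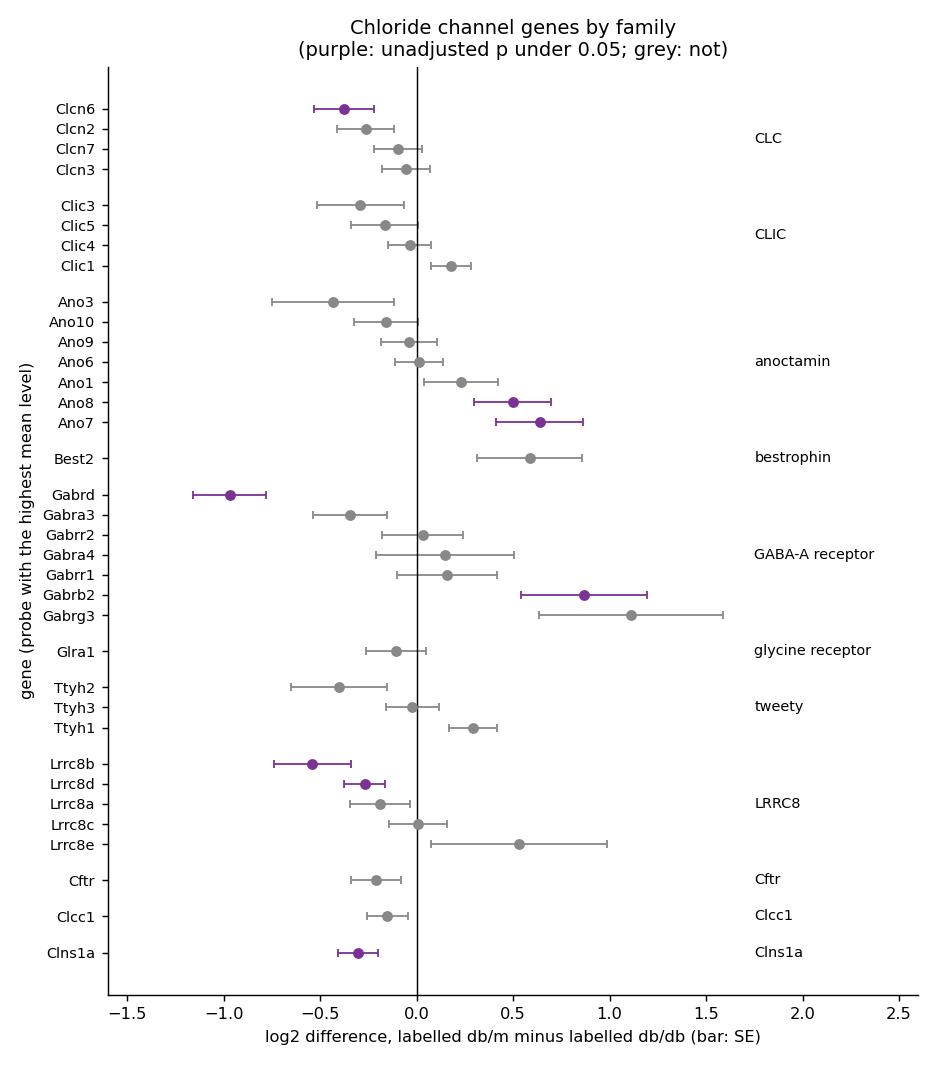
Log2 difference between the groups, positive where labelled db/m was higher, with its SE (horizontal axis), for the probe of highest mean level of 35 of the 36 tested genes, grouped by family. The 4 CLC genes all lie left of 0 with this scaling, whereas the GABA-A receptor genes spread from -0.97 for Gabrd to 1.11 for Gabrg3.

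The CLC family had differences below 0 in all 4 tested genes, from -0.38 to -0.05, though Clcn3 and Clcn7 lay above 0, at 0.09 and 0.02, by quantile normalization. The family median of -0.18, against -0.05 for all genes, was -0.10 against 0.00 by quantile normalization, -0.09 against 0.00 in the deposited matrix and -0.10 against -0.03 without labelled db/db replicate 2. Clcn6 alone passed the test. Its probe A_51_P410300 had levels of -1.47, -1.20 and -1.53 in labelled db/m and -0.99, -0.85 and -1.24 in labelled db/db. The groups overlapped narrowly, and the difference was -0.38 (SE 0.15, adjusted p = 0.276). The other Clcn6 probes gave the same direction without overlap. A_51_P492026 had levels of -3.24, -3.06 and -3.34 against -2.63, -2.76 and -3.05, a difference of -0.40 (SE 0.15, adjusted p = 0.259). A_55_P2000738 had levels of -3.71, -3.39 and -3.38 against -3.24, -2.94 and -2.83, a difference of -0.49 (SE 0.16, adjusted p = 0.241). All 3 probes thus placed Clcn6 lower in labelled db/m by 1.3-fold to 1.4-fold, with probes that share their RNA and are not separate evidence.

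The other CLC genes differed by less than their error allowed to call. Clcn3, an endosomal chloride and proton exchanger, had levels of 4.19, 4.39 and 4.30 in labelled db/m and 4.25, 4.51 and 4.27 in labelled db/db, a difference of -0.05 (SE 0.12). Its other tested probes gave -0.06 and -0.20. Clcn7, the lysosomal exchanger that works with Ostm1, had levels of 3.02, 3.16 and 3.13 against 3.02, 3.34 and 3.24, a difference of -0.10 (SE 0.12). In both genes the groups overlapped. Clcn2, a plasma membrane channel activated by hyperpolarisation, had a difference of -0.26 (SE 0.15, adjusted p = 0.364).

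The letters CACGTG, a motif that reads alike on both strands and lies at the core of the sites bound by the lysosomal regulator TFEB, were searched in the 250 bases before each gene's start in RefSeq promoters (GRCm38.p6). Of 29 tested chloride channel genes with a promoter in that table, 5 held the motif, which were Ano3, Clcn6, Clcn7, Clns1a and Lrrc8a. By promoter the share was 13.9% of 36, against 6.02% of 32851 promoters. The motif contains the base pair step CG, of which these promoters held a median of 11.5, against 6 in all promoters. The part of this richness in the share was not tested. The Clcn6 promoter held 2 matches, of which the first is shown. The windows of Clcn6 and Clns1a, both lower in labelled db/m, and of the lysosomal Clcn7, whose difference did not pass the test, are shown with the motif in capitals.
Clcn6, chr4:148038844-148038873, minus strand: gctcgagagggcCACGTGaccctcccgggg
Clcn7, chr17:25133361-25133390, plus strand: gcctccgtcgtcagtCACGTGggcaccgat
Clns1a, chr7:97696531-97696560, plus strand: gggaaccgatgcCACGTGacaaaagccagc

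The match is a description of these letters and not a site, and it was seen in genes that did and did not pass the test. By gene, the motif was in 2 of the 7 genes with a called probe and a promoter in the table, against 1854 of all 27025 genes there. The GC box core GGGCGG, on either strand, was in 63.9% of the 36 promoters, against 32.7% of all, beside a median GC content of 60.4% for these promoters and 52.4% for all.

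Clcc1 gave the most stable difference of the set. Its intron-spanning probe A_55_P2594626 had levels of -0.20, -0.28 and -0.40 in labelled db/m and 0.29, 0.33 and 0.33 in labelled db/db. Every labelled db/m array lay below every labelled db/db array, by 1.53-fold on average, and the difference was -0.61 (SE 0.11, adjusted p = 0.241). The other tested probe, A_55_P2121222, had levels of 3.00, 3.13 and 3.01 against 3.14, 3.27 and 3.18, also without overlap but with a difference of only -0.15 (SE 0.11, adjusted p = 0.447). Within each array, the gap between both probes was -3.20, -3.41 and -3.41 in labelled db/m and -2.85, -2.94 and -2.85 in labelled db/db. The gap thus differed by -0.46 (SE 0.08) and did not overlap between the groups. Such gaps were computed for 6 pairs of probes chosen after their values were seen, so they are given as a description with no test. The probes read different stretches of the transcript, and the deposited names assign both to the same RefSeq transcript. Another Clcc1 probe was well above background on 1 and 2 arrays of the groups and was not tested.

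Clns1a encodes pICln, a cytosolic protein first described as a chloride current regulator and now known for the assembly of splicing complexes. Its single probe had levels of 0.82, 0.90 and 0.84 in labelled db/m and 1.11, 1.24 and 1.12 in labelled db/db. The groups did not overlap, and the difference was -0.30 (SE 0.10, adjusted p = 0.245), which is 1.23-fold lower in labelled db/m.

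The LRRC8 family showed a mixed pattern around a median of -0.19, which became -0.07 on leaving out replicate 2 of labelled db/db, -0.12 on leaving out replicate 1 of labelled db/m and -0.03 with the mean over all tested probes of each gene. Lrrc8a, the obligatory subunit of the volume-regulated anion channel, had levels of 4.17, 4.50 and 4.44 in labelled db/m and 4.42, 4.81 and 4.44 in labelled db/db, a difference of -0.19 (SE 0.16, adjusted p = 0.509) with overlapping groups. Lrrc8d, a subunit that lets the channel pass uncharged osmolytes and some drugs, had levels of 3.44, 3.56 and 3.41 against 3.73, 3.79 and 3.71 at probe A_55_P2805915. These did not overlap, and the difference was -0.27 (SE 0.10, adjusted p = 0.267). The second Lrrc8d probe had the opposite sign, 0.20 (SE 0.18, adjusted p = 0.534), with overlapping groups, and the gap between both probes differed by -0.47 (SE 0.24) and overlapped too. Lrrc8b, another partner subunit, had levels of -0.79, -0.09 and -0.28 against 0.00, 0.33 and 0.14 at probe A_51_P420841. Here too the groups did not overlap, and the difference was -0.54 (SE 0.20, adjusted p = 0.257).

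The second Lrrc8b probe, A_55_P1953489, read -0.02 (SE 0.24), and the gap between the pair of Lrrc8b probes differed between the groups by -0.52 (SE 0.13) without overlap. Lrrc8c had a difference of 0.01 (SE 0.15). Lrrc8e had levels of -1.80, -3.40 and -1.59 in labelled db/m and -2.56, -2.98 and -2.84 in labelled db/db, so that labelled db/m replicates 1 and 3 were high and replicate 2 was the lowest of all arrays. Its difference was 0.53 (SE 0.46, adjusted p = 0.530), and without labelled db/m replicate 2 it passed 1 on the log2 scale (SE 0.17, adjusted p = 0.0570 in limma). In that fit 23.2% of all probes were called, and 302 of them passed an adjusted p of 0.05. The inner medulla markers Aqp4, with levels of 2.74, 0.76 and 2.26, and Akr1b3, with 5.69, 2.83 and 5.33, were likewise high on labelled db/m replicates 1 and 3. Their part in the Lrrc8e values was not tested.

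Anoctamins held 3 of the 4 higher calls, out of 9 tested anoctamin probes, where 6.62% of all tested probes were called higher. The family median was 0.01. Ano7, known from prostate, had levels of -2.65, -2.05 and -2.29 in labelled db/m and -3.32, -2.98 and -2.61 in labelled db/db, a difference of 0.64 (SE 0.23, adjusted p = 0.251). Ano8, which tethers the endoplasmic reticulum to the plasma membrane, had levels of -2.48, -2.08 and -2.10 against -2.91, -2.89 and -2.35, a difference of 0.50 (SE 0.20, adjusted p = 0.272). In both genes replicate 3 was the highest labelled db/db array and replicate 1 the lowest labelled db/m array, and the groups overlapped. These arrays shared a slide, and within it the differences were -0.046 for Ano7 and -0.13 for Ano8.

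Ano6 is a lipid scramblase and ion channel found in most tissues. Its probe A_55_P2327027 had levels of -0.92, -0.88 and -0.82 in labelled db/m and -1.27, -1.07 and -1.19 in labelled db/db, a difference of 0.30 (SE 0.11, adjusted p = 0.252) without overlap. The probe of higher mean level, A_52_P660158, had levels of 3.51, 3.26 and 3.50 against 3.40, 3.52 and 3.32 and a difference of 0.01 (SE 0.12). The gap between both Ano6 probes differed by 0.29 (SE 0.10) without overlap. Ano10, linked to a hereditary ataxia, had levels of 2.49, 3.03 and 2.78 against 2.83, 3.09 and 2.86 and a difference of -0.16 (SE 0.17). Ano1, the classical calcium-activated chloride channel, had a difference of 0.23 (SE 0.19), Ano3 of -0.43 (SE 0.32) and Ano9 of -0.04 (SE 0.15), none of which passed the test.

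GABA-A receptor subunits spread most widely, from -0.97 to 1.11 around a median of 0.09, and most of their tested probes were dim. Gabrd had levels of -3.43, -3.63 and -4.14 in labelled db/m and -2.69, -2.80 and -2.81 in labelled db/db. The groups did not overlap, and the difference was -0.97 (SE 0.19, adjusted p = 0.241), or 1.96-fold lower in labelled db/m, just short of the fold screen. The probe was well above background on 2 of 3 labelled db/m arrays. It thus entered the test through labelled db/db alone, where it was higher. The difference was -1.03 with the dim array set to the lowest signal called well above background. With another background correction (normexp) it was only -0.51 (SE 0.13), so its size depends on how background is handled. Gabrb2, a beta subunit, had levels of -3.29, -2.87 and -2.46 against -3.52, -4.39 and -3.31 at probe A_55_P2745205. These did not overlap, and the difference was 0.87 (SE 0.33, adjusted p = 0.262). The probe entered the test through labelled db/m alone, where it was higher, because a labelled db/db array was not well above background. With that array at that lowest signal the difference was 0.69. By normexp it was 0.28 (SE 0.15) and did not pass the test. The second tested Gabrb2 probe gave 0.34 (SE 0.17, adjusted p = 0.325), and the gap between both overlapped between the groups, with a difference of 0.52 (SE 0.38).

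Gabrg3 had the largest difference of the set in the main fit, 1.11 (SE 0.48, adjusted p = 0.287), which missed the test. It was tested because it was well above background throughout labelled db/m, where it was higher. With dim arrays at the lowest signal well above background, the Gabrg3 difference was 0.90. Its levels were -3.15, -2.14 and -2.25 in labelled db/m and -4.23, -4.06 and -2.59 in labelled db/db, so that labelled db/db replicate 3 lay among the labelled db/m arrays, and that array alone of its group was well above background. Within the slide that held this array and labelled db/m replicate 1, the difference had the other sign, -0.57 (SE 0.21). Gabra3 had a difference of -0.35 (SE 0.19), and Gabra4 one of 0.15 (SE 0.36) that became -0.15 with dim arrays at the lowest signal well above background. Of the 8 neuron markers, 4 stayed below that call on every array, namely Syn1, Syt1, Gad2 and Slc32a1. The summed signal of the 4 tested ones was 11.7 to 16.5 in labelled db/m and 7.81 to 9.17 in labelled db/db. Snap25, a synaptic vesicle fusion protein, made up 89.2% to 95.0% of that sum and was the only one of the 4 to pass the test, at 0.68 (SE 0.17, adjusted p = 0.241). Rbfox3, at -0.01, Stmn2, at -0.04, and Gad1, at 0.27, did not pass it, and without Snap25 the sums overlapped, at 0.833 to 1.03 and 0.783 to 0.994. The part of these markers in the receptor values was not tested.

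The rho subunits Gabrr1 and Gabrr2 form GABA receptors known from the retina. Gabrr2 had levels of 0.51, 0.63 and 0.33 in labelled db/m and 0.17, 0.29 and 0.91 in labelled db/db, a difference of 0.03 (SE 0.21). Gabrr1 was read by 2 probes that overlap by 40 bases and yet differ in their letters. They are shown over the same 30 bases of the genome, plus strand, with the differing bases in capitals.
Gabrr1 A_55_P2723529, chr4:33250509-33250568, bases 1 to 30: ctgcctCtccaccacggagcaggtgctttC
Gabrr1 A_51_P177691, chr4:33250489-33250548, bases 21 to 50: ctgcctTtccaccacggagcaggtgctttT

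Counted from the 5′ end of A_55_P2723529, the differences are C7T and C30T. That probe had levels of -0.69, 0.08 and -0.32 in labelled db/m and -0.73, -0.65 and -0.02 in labelled db/db, a difference of 0.16 (SE 0.26). A_51_P177691 had levels of -1.46, -0.54 and -0.92 against -2.02, -2.11 and -0.98, a difference of 0.73 (SE 0.36, adjusted p = 0.321). Neither passed the test, but the gap between the overlapping probes was -0.78, -0.62 and -0.60 in labelled db/m and -1.29, -1.46 and -0.96 in labelled db/db. The gap did not overlap between the groups and differed by 0.57 (SE 0.16). Which letters the mice carry at these positions was not tested.

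**Figure D3:**
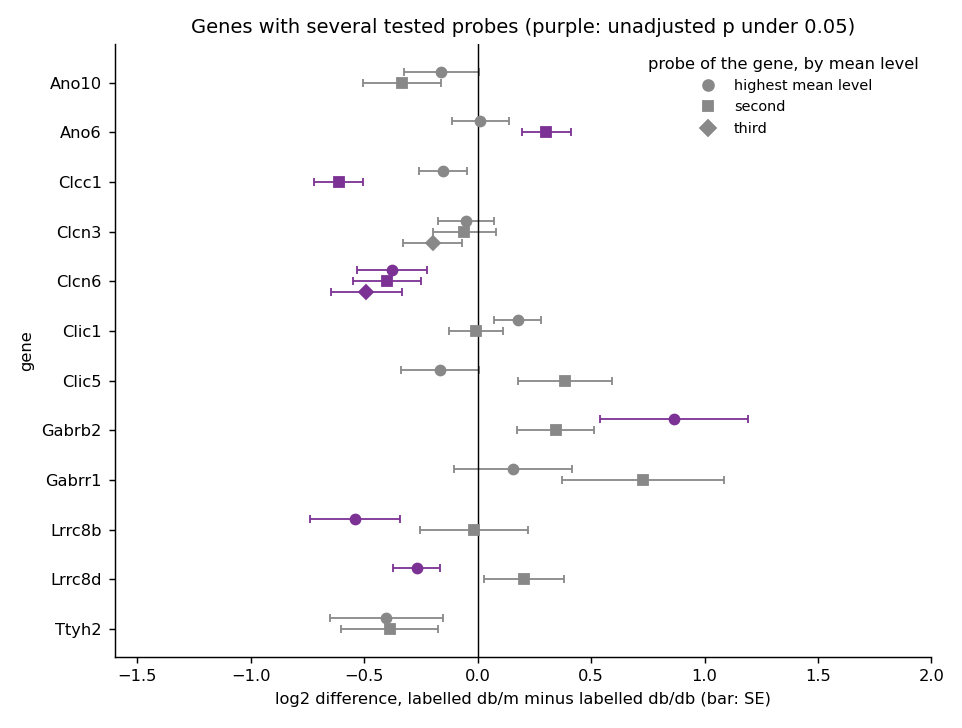
Log2 difference between the groups, positive where labelled db/m was higher, with its SE (horizontal axis), for every tested probe of 12 of the 13 genes with several tested probes. The 3 Clcn6 probes lie together between -0.49 and -0.38, while the probes of Clcc1, Lrrc8b, Lrrc8d and Ano6 lie apart.

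Among the remaining families no probe passed the test in the main fit, though Clic1, Ttyh2 and Best2 did in some alternatives. Clic4 and Clic1, which move between cytosol and membranes, are widely expressed. Clic4 had levels of 4.65, 4.46 and 4.57 in labelled db/m and 4.69, 4.55 and 4.54 in labelled db/db, a difference of -0.04 (SE 0.11). Clic1 had levels of 4.08, 3.98 and 4.10 against 3.86, 3.93 and 3.83 without overlap. Its difference was only 0.18 (SE 0.10, adjusted p = 0.381), and its second probe gave -0.01 (SE 0.12). By quantile normalization the difference of the first Clic1 probe was 0.31 (SE 0.10, limma adjusted p = 0.275) and passed the test. With median centring it was -0.001 (SE 0.18). Clic5, enriched in podocyte foot processes and glomerular endothelium, had probes at -0.17 (SE 0.17) and 0.38 (SE 0.21). The tweety genes encode large-conductance anion channel candidates. Ttyh2 had levels of 2.43, 3.25 and 2.71 against 3.03, 3.56 and 3.01, a difference of -0.40 (SE 0.25, adjusted p = 0.400), and its second probe gave -0.39 (SE 0.21). Ttyh3 had levels of 1.38, 1.79 and 1.59 against 1.71, 1.56 and 1.56, a difference of -0.02 (SE 0.14). Ttyh1 had a difference of 0.29 (SE 0.12, adjusted p = 0.285).

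Cftr had levels of -0.17, -0.06 and -0.36 in labelled db/m and 0.15, -0.02 and -0.09 in labelled db/db. The groups overlapped, and the difference was -0.21 (SE 0.13, adjusted p = 0.400). Best2 had levels of -2.77, -1.95 and -2.12 against -3.01, -3.15 and -2.43, a difference of 0.59 (SE 0.27, adjusted p = 0.306). The glycine receptor subunit Glra1 had levels of -2.81, -3.03 and -2.84 against -2.69, -3.06 and -2.60, a difference of -0.11 (SE 0.15).

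Leaving out each array in turn separated the calls. Clcc1 kept an unadjusted p under 0.05 in all 6 cases, with differences from -0.66 to -0.56, and Gabrd in all 6, from -1.12 to -0.77. With all arrays, however, Gabrd had entered the test only through labelled db/db, where it was higher. Each of the other 10 probes lost the call in at least 3 cases without turning sign. Within slide 1, which held replicate 1 of labelled db/m and replicate 3 of labelled db/db, the differences were -0.53 for Clcc1, -0.62 for Gabrd, -0.23, -0.19 and -0.88 for the Clcn6 probes and -0.29 for Clns1a. They were -0.92 for Lrrc8b, -0.27 for Lrrc8d, 0.27 for Ano6 and 0.02 for Gabrb2. The other slides each held arrays of 1 label only. A fit with slide as a fixed block thus compares the groups only by replicate 1 of labelled db/m and replicate 3 of labelled db/db. In that fit, 12 of the 51 tested probes had the other sign than over all arrays. Beside Ano7, Ano8 and Gabrg3 these were Best2 (-0.34), the second Gabrb2 probe (-0.13), Gabrr2 (-0.39), the Gabrr1 probes A_55_P2723529 (-0.67) and A_51_P177691 (-0.48), Ano1 (-0.12), Ano9 (0.27), Clic4 (0.11) and the second Clic1 probe (0.14). Without both arrays that stood apart, a choice made after seeing the data, 10 of 53 tested chloride channel probes were higher and 13 lower, or 43.4% of them, against 31.1% of all probes.

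**Figure D4:**
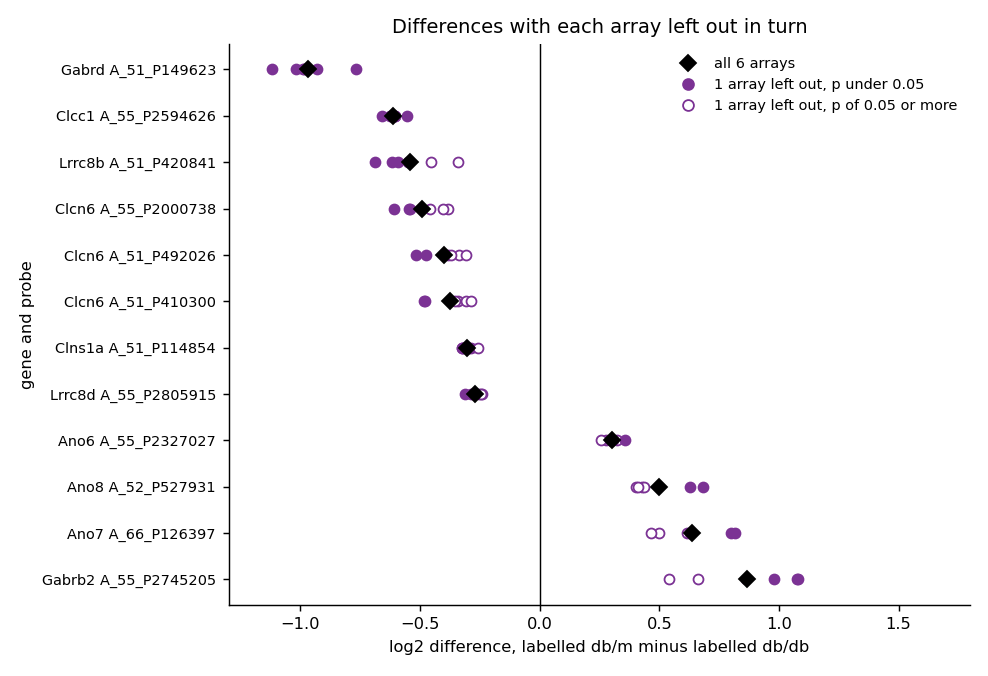
Log2 difference between the groups (horizontal axis, positive where labelled db/m was higher), of the 12 probes with an unadjusted p under 0.05, with all 6 arrays and with each array left out in turn. Clcc1 and Gabrd show filled points throughout, and no point crosses 0.

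Other genes of chloride transport were set beside the channels from a list of 42 cotransporters, exchangers, thick limb channels and regulators, of which 37 were tested. Their median difference was -0.05, the same as for all genes, and 0.05 against 0.00 by quantile normalization. At an unadjusted p under 0.05, 8 were lower and 2 higher, or 27.0% of the 37. Of the 15513 genes read in the same way, 15.3% passed the test, with 1554 lower and 820 (5.29%) higher. Slc12a3, the thiazide-sensitive sodium chloride cotransporter of the distal convoluted tubule, had levels of 2.38, 2.66 and 2.15 in labelled db/m and 3.24, 3.42 and 3.27 in labelled db/db. The groups did not overlap, and the difference was -0.92 (SE 0.15, limma adjusted p = 0.241). Slc26a1, a sulfate anion exchanger, differed by -0.71 (SE 0.18, adjusted p = 0.241), and Slc26a4, the pendrin exchanger of intercalated cells, by -0.54 (SE 0.16, adjusted p = 0.241). Slc12a7, a potassium chloride cotransporter, differed by -0.46 (SE 0.17, adjusted p = 0.253), and the kinase Wnk1, which regulates cation chloride cotransport, by -0.45 (SE 0.14, adjusted p = 0.241).

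Cul3, part of the ubiquitin ligase that degrades WNK kinases, differed by -0.40 (SE 0.13, adjusted p = 0.242). Slc26a7, a chloride exchanger, was higher by 0.81 (SE 0.16, adjusted p = 0.241), but it entered the test through labelled db/m alone. Its probe was well above background on the 3 labelled db/m arrays and on no labelled db/db array, so the size of the difference is uncertain. Cab39l, a cofactor of the kinases that WNKs activate, was higher by 0.51 (SE 0.13, adjusted p = 0.241). These 8 are the largest of the 10. Ostm1, the partner of Clcn7, had a difference of -0.12, and Gphn, the gephyrin scaffold of glycine and GABA-A receptors, of -0.11, neither of which passed the test. Summed signals of 5 intercalated cell markers were 30.1 to 32.0 in labelled db/m and 35.7 to 39.3 in labelled db/db. Slc26a4 is itself among them, and without it the sums overlapped, at 11.1 to 15.4 and 12.7 to 13.1. Of the other markers, Atp6v0d2, at -0.31 (SE 0.12, limma adjusted p = 0.271), passed the test as well. Atp6v1g3, at -0.27 (SE 0.12), Slc4a1, at 0.35 (SE 0.28), and Foxi1, at -0.07 (SE 0.14), did not. Summed signals of 3 distal convoluted tubule markers were 23.3 to 42.0 and 31.3 to 40.0, and 18.1 to 35.7 and 21.8 to 29.3 without Slc12a3, which is one of them. The part of these markers in the values was not tested.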

How the data were processed

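Intensities per spot from Agilent Feature Extraction 10.7.1.1 were deposited, with background subtracted and the arrays not scaled to each other; names and mm9 positions came from the same files. A deposited matrix of log2 values served as an alternative (Pearson r of 0.998 or more with the scanner values). In R 4.3.3, flagged spots were left out, spots of a probe averaged, and the 75th percentile of each array subtracted from the log2 intensity. Probes called well above background throughout a group (29889) were fitted with lmFit and eBayes (limma 3.58.1) and adjusted by Benjamini-Hochberg over all of them. The paper's text names no test for the arrays. The procedure was tested on simulated data. Of the 118 probes, 90 matched RefSeq by accession. The name pattern left out Clcn5 and any probe named Clcn4-2. Named genes were those at an unadjusted p under 0.05, the 2 of highest mean level in each family, genes whose probes had opposite signs with such a p, and up to 8 other chloride transport genes. Some genes that this rule covers are left out of the text and plots and stay in the counts and medians. Members, families and lists were chosen with earlier results of these data known. The paper's methods describe RNA of 3 db/db mice with and 3 without treatment. The labels number 3 samples per group without tying each to a separate mouse, so p-values measure the spread between these samples. Precision is limited by the number of arrays. Alternatives were other scalings, filters, tests, slide or replicate blocks, the matrix and each array left out.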

Additional observations from a re-analysis of the deposited data

How the results depend on the processing

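The number of higher probes (4) was 2 with median centring, 2 with no filter on dim probes, 0 with slide as a fixed block and 10 without both arrays that stood apart. The number of lower probes (8) was 5 with no filter, 5 by one-way ANOVA and 13 without both arrays. With the replicate block 7 were higher and 11 lower. Replicate numbers were shared by labels only. After the mean of each group was subtracted from every probe, the remainders of arrays of the same number correlated at 0.35, 0.15 and 0.05. The share of all probes called moved as well. Shares of chloride channel probes and of all probes were 27.5% and 22.3% with median centring and 5.93% and 8.67% with no filter. They were 15.7% and 15.5% by one-way ANOVA and 15.7% and 9.78% with slide as a fixed block. With the replicate block they were 35.3% and 22.2%, and without both arrays 43.4% and 31.1%. No probe passed the fold screen with all arrays, but 1 did by quantile normalization, by median centring, in the deposited matrix and with dim arrays at the lowest signal well above background (Gabrd in each), with slide as a fixed block, and with slide as a random block and the replicate block (Gabrg3); 5 did without both arrays. The median over genes (-0.07) was -0.25 with median centring, which moved the median of all probes from -0.04 to -0.21 and the share of higher among all calls from 37.4% to 13.5% (members, 33.3% to 14.3%), and -0.21 with slide as a fixed block. The 10 calls among other chloride transport genes (27.0% of 37, against 15.3% of all genes) were 6 with that block (16.2% against 8.41%) and 20 without both arrays (54.1% against 30.2%). Leaving out each array gave 0 to 7 higher probes (0 with replicate 3 of labelled db/m out, 1 with replicate 2 of labelled db/db out), 2 to 12 lower (2 with replicate 1 of labelled db/m or replicate 2 of labelled db/db out, 12 with replicate 2 of labelled db/m out), 0 to 3 past the screen, medians from -0.13 to -0.05, and 5 to 21 calls among the other transport genes (5, or 13.5% against 6.27% of all genes, with replicate 3 of labelled db/m out; 21, or 56.8% against 23.6%, with replicate 2 of labelled db/m out). Over the same fits the share of all probes called ran from 7.67% to 24.6%, and that of chloride channel probes from 5.45% to 29.4%. With replicate 2 of labelled db/m out, Best1, chosen after its values were seen, was higher by 1.41 (limma adjusted p = 0.0481). It was not tested with all arrays and entered here through the labelled db/m arrays, where it was higher. In that fit 302 probes of the whole array passed an adjusted p of 0.05. A fit with slide as a fixed block compares the groups by 1 array each. There Ano7 was -0.046, Ano8 -0.13 and the Gabrr1 probe A_55_P2723529 -0.67, each of opposite sign to the fit over all arrays. So were the rest of the 12 probes named with their values above. The other 10 of the 12 called probes kept their sign under each of the up to 18 settings in which they were tested, each array left out included, and Clcc1 alone kept its p under 0.05 in all of them. Family medians of the CLC and LRRC8 genes kept their sign throughout but ran from -0.36 (median centring) to -0.09 and from -0.37 (median centring) to -0.03, while those of anoctamins turned in 6, GABA-A receptors in 7, tweety genes in 5 and CLIC genes in 3 of 20 settings. The cause of these changes was not tested.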
